A study of Ovis aries with 6 samples.

Results

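The selectin genes SELP and SELE, the leukocyte adhesion genes ICAM1 and PECAM1, the clotting factor gene VWF and the tight junction gene CLDN5 were read across the somatic cells of the Hu sheep ovary. They come from a set of 7 genes chosen by name, with no measured value in the rule. Of these 7 genes, 6 had a row among the 30574 genes of the deposited counts, and VCAM1 was not analysed here. One ovary from each of 6 adult Hu ewes in estrus was digested to single cells and gave 1 library of droplet-based single-cell RNA sequencing. The labels place 3 ewes in the high-reproduction group (HLS), with litters of at least 3 lambs, and 3 in the low-reproduction group (LLS), with litters under 2 lambs. All ewes were of the same breed, and neither group carried a stated treatment or genotype.

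Leukocytes leave the blood through a series of endothelial contacts. P-selectin (SELP) and E-selectin (SELE) on the vessel wall catch passing leukocytes and let them roll, ICAM1 then binds their integrins and holds them, and PECAM1 at the contacts between endothelial cells takes part in their passage through the wall. VWF, which binds platelets, is stored together with P-selectin in the Weibel-Palade bodies of endothelial cells, and CLDN5 (claudin 5) seals the tight junctions of the vessel wall. In the ovary the vessels around a follicle grow and open, and leukocytes enter, in the hours before ovulation.

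Counts of unique molecular identifiers (UMI), each marking 1 captured RNA molecule, held 7992 to 9135 barcodes and 43329214 to 75549906 UMI per ewe. After filtering, 36457 cells remained and fell into 28 clusters, each named after its marker genes, with -like added to the name. The clusters were made without the 6 genes described here, and a cluster with theca markers was counted with the stromal-like cells. Endothelial-like cells were the most frequent type (15044 cells, 41.3%), with a median of 8447 UMI per cell. The 9 endothelial marker genes together gave 30.8 ± 5.12 UMI per 10000 UMI in these cells (mean ± SD over ewes, n = 6) and 0.97 to 2.73 in granulosa-like, stromal-like, immune-like and perivascular-like cells, while the 11 immune markers gave 0.30 and the 7 platelet markers 0.05 in endothelial-like cells. No more than 297 barcode sequences occurred in 2 libraries, and none occurred in more. Levels below are UMI of the gene per 10000 UMI, summed over the cells of a type in each ewe with at least 20 such cells. The libraries were counted at the 3′ end of the RNA, so that levels of the 6 genes are compared between cells for 1 gene and not between genes. Where listed genes are ordered or summed below, the order and the sum hold for counted UMI and not for amounts of RNA.

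The endothelial-like cells of HLS replicate 2 and LLS replicate 1 stood apart from those of the other 4 ewes. Cells named capillary-like made up 53.2% and 61.2% of their endothelial-like cells, against 3.06% to 5.99% in the other 4 ewes. The name does not cover all cells with capillary markers. CA4, also a capillary marker, was among the leading genes of clusters 2 and 3 of all cells. Cluster 2 made up 13.9% and 10.9% of the endothelial-like cells of these 2 ewes and 5.89% to 57.4% in the other 4. Cluster 3 made up 8.27% and 2.73%, against 22.5% to 80.9%. A sub-cluster led by IL6 and CXCL9 (sub-cluster 1) made up 0.824% and 0.293% in HLS replicate 2 and LLS replicate 1 and 20.2% to 36.7% elsewhere. Another, led by SLC2A1 and PTGDS (sub-cluster 4), made up 19.3% and 9.50% there and 0% elsewhere. The 2 ewes belong to different groups, and the comparisons of HLS with LLS ewes in the 5 main types and in capillary-like, arterial-like and lymphatic-like cells were also made without them.

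**Figure D1:**
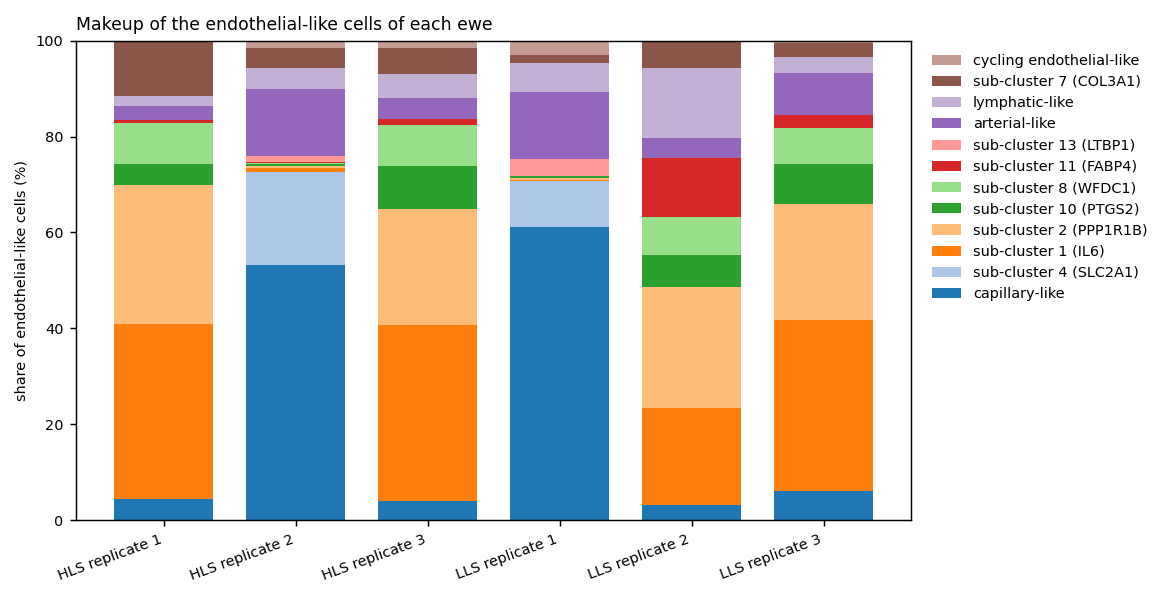
Share of each endothelial sub-cluster (% of endothelial-like cells, y axis) in each of the 6 ewes (x axis), with the first leading gene of unnamed sub-clusters in brackets. Cells named capillary-like filled 53.2% and 61.2% of the bars of HLS replicate 2 and LLS replicate 1 and no more than 5.99% of the other 4.

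SELP, which encodes P-selectin, was found almost entirely in endothelial-like cells, which held 94.5% of its 27642 UMI. Its level in endothelial-like cells was 1.40, 0.93 and 2.33 UMI per 10000 in HLS replicates 1, 2 and 3 and 1.03, 3.20 and 3.54 in LLS replicates 1, 2 and 3. The lowest values belonged to HLS replicate 2 and LLS replicate 1, and the ranges of both groups overlapped. The mean was 2.07 ± 1.13 (SD, n = 6), against 0.0847 ± 0.0902 in perivascular-like, 0.0572 ± 0.0361 in immune-like, 0.0299 ± 0.029 in stromal-like and 0.0232 ± 0.0193 in granulosa-like cells. Endothelial-like cells were higher than each of these 4 types in 6 of 6 ewes, by 34.0-fold over perivascular-like cells and 86.6-fold over stromal-like cells (geometric mean over ewes). The neighbours among the 4 low types overlapped in range and were not told apart. When each cell was thinned to 2000 UMI, 24.9% ± 10.2 of endothelial-like cells had a SELP UMI (unthinned 46.9%), against 0.422% of granulosa-like cells (unthinned 1.54%, median depth 7849 UMI), the type taken as one that should lack the gene.

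SELE, which encodes E-selectin, was close to the limit of detection, with 277 UMI in all cells together. Of these UMI, 74.7% came from endothelial-like and 21.3% from cycling-like cells. The counts in endothelial-like cells were 5, 24 and 16 UMI in HLS replicates 1, 2 and 3 and 120, 10 and 32 UMI in LLS replicates 1, 2 and 3, so that 1 ewe, LLS replicate 1, gave more than all others together. In all, 0.911% of endothelial-like cells carried a SELE UMI at full depth. No perivascular-like cell of 2663 did, which allows a share of cells with a UMI of up to 0.113% and sets no limit on cells expressing the gene, at a median depth of 3358 UMI. The level was 0.0121 ± 0.0088 UMI per 10000 in endothelial-like and 0.0167 ± 0.0153 in cycling-like cells, and cycling-like cells were the higher in 3 of 6 ewes, with overlapping ranges. At this depth an order among the other types was not detectable. Intervals and limits of this kind cover counting error only.

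ICAM1, the endothelial ligand of leukocyte integrins, was the least restricted of the 6 genes. Endothelial-like cells held 60.9% of its 47364 UMI and stromal-like cells 22.7%. Its level was 2.15 ± 0.674 UMI per 10000 in endothelial-like and 2.16 ± 0.465 in perivascular-like cells, which cover vessels from the outside and include pericytes and smooth muscle (n = 6). In 3 of 6 ewes the endothelial-like cells were higher and in 3 the perivascular-like cells. The per-ewe ratio of endothelial-like to perivascular-like cells was -0.05 ± 0.58 on the log2 scale. Stromal-like cells followed with 1.42 ± 0.524 and immune-like cells with 1.19 ± 0.373. Perivascular-like cells exceeded stromal-like cells in 6 of 6 ewes by 1.59-fold, and endothelial-like cells exceeded stromal-like cells in 5 of 6 ewes by 1.54-fold, although the ranges overlapped. Granulosa-like cells, at 0.171 ± 0.0545, lay below all of these types with no overlap. With 2000 UMI per cell, 32.6% ± 7.09 of perivascular-like, 28.3% ± 7.02 of endothelial-like, 24.4% ± 5.78 of stromal-like and 14.2% ± 5.01 of immune-like cells had an ICAM1 UMI. The share in granulosa-like cells was 2.96% ± 1.20, with unthinned shares of 55.5% in endothelial-like and 11.1% in granulosa-like cells.

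PECAM1, a homophilic adhesion protein of endothelial cells, platelets and leukocytes, had 83.5% of its 150913 UMI in endothelial-like cells. Its level there was 5.31, 9.49 and 8.11 UMI per 10000 in HLS replicates 1, 2 and 3 and 9.14, 10.10 and 8.66 in LLS replicates 1, 2 and 3. HLS replicate 1 was the lowest, and the other 5 ewes lay close together. Immune-like cells were second among the non-cycling types with 4.49 ± 1.43, at 0.51 of the endothelial-like level, lower in 6 of 6 ewes. The immune signal was uneven. The cluster led by the complement genes C1QC, C1QA and C1QB held 6.60 ± 2.16 UMI per 10000 and the cluster led by the lymphocyte genes GNLY and CD3E held 0.695 ± 0.244, a 9.42-fold difference with the same direction in 6 of 6 ewes. ICAM1 differed in the same direction between these clusters, by 3.30-fold in 6 of 6 ewes. Perivascular-like, stromal-like and granulosa-like cells had 0.385, 0.192 and 0.177 PECAM1 UMI per 10000.

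VWF and CLDN5 were also found almost entirely in endothelial-like cells. Endothelial-like cells held 92.5% of the 89908 UMI of VWF and 92.5% of the 61945 UMI of CLDN5. The level of VWF was 6.26 ± 2.12 UMI per 10000 in endothelial-like cells and 0.172 to 0.406 in the other 4 non-cycling types. The level of CLDN5 was 4.19 ± 1.41 in endothelial-like cells and 0.0942 to 0.170 in the other 4. Both genes were higher in endothelial-like than in each of these types in 6 of 6 ewes. HLS replicate 2 and LLS replicate 1 again had the lowest endothelial-like values, 3.87 and 3.28 for VWF against 6.92 to 8.06 in the other 4 ewes, and 2.71 and 2.19 for CLDN5 against 4.51 to 5.60.

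Cycling-like cells, which were set apart by cell division genes, held each of the genes except SELE and ICAM1 between the levels of endothelial-like and stromal-like cells. The 2 cycling clusters differed. The first, in which endothelial markers scored second to cell division genes, had 8.25 ± 2.16 PECAM1, 2.08 ± 0.652 VWF and 1.91 ± 0.735 CLDN5 UMI per 10000 (n = 6 ewes). The second, in which stromal markers scored second, had 0.127 ± 0.0584 PECAM1, 0.178 ± 0.136 VWF and 0.108 ± 0.103 CLDN5 (n = 5 ewes). ICAM1 was similar in both, at 0.875 ± 0.369 and 0.736 ± 0.323.

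**Figure D2:**
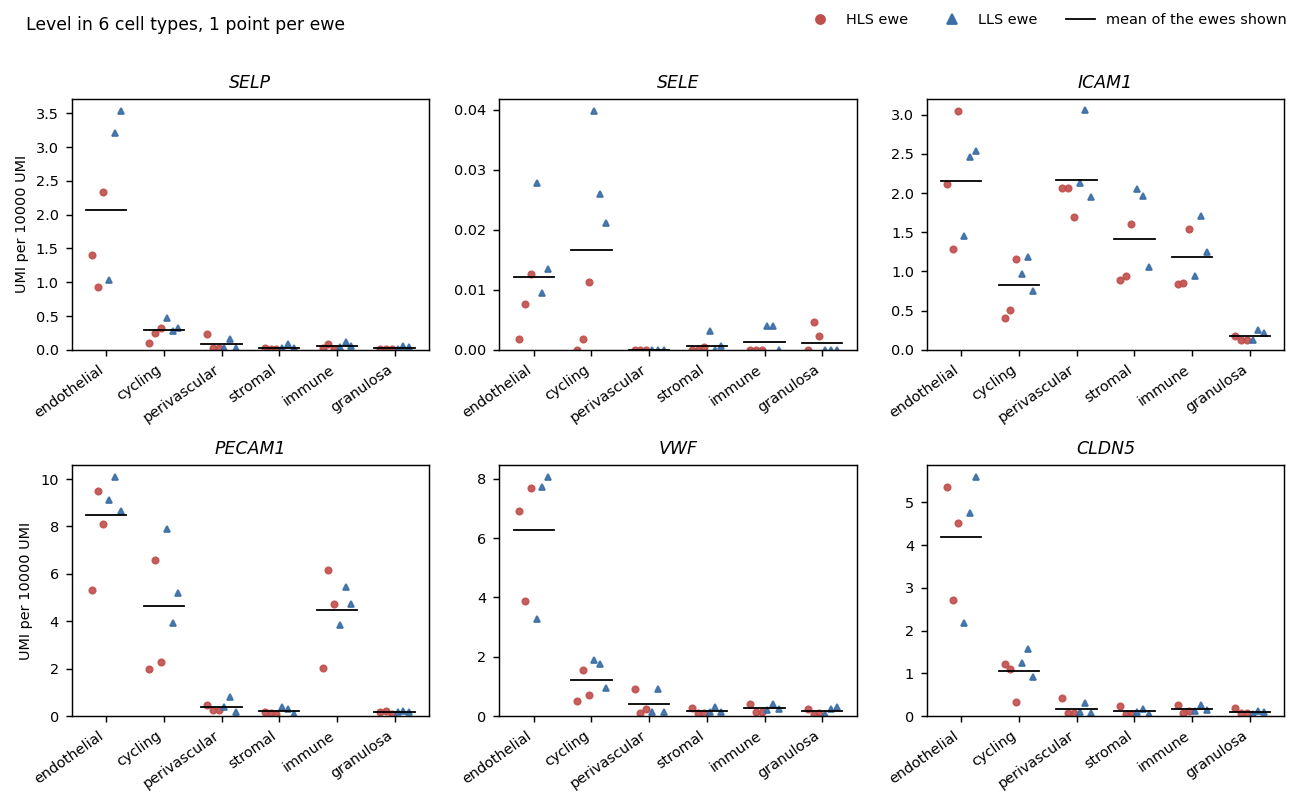
Level of each gene (UMI per 10000 UMI, y axis, linear, a scale of its own for each gene) in 6 cell types (x axis), with 1 point per ewe and the mean over ewes as a line. SELP, VWF and CLDN5 stood above 0.9 UMI per 10000 in every ewe's endothelial-like cells, while ICAM1 had means of 2.15 in endothelial-like and 2.16 in perivascular-like cells.

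The endothelial-like cells were clustered again, on values centred per ewe and again without the 6 genes, into 14 sub-clusters. Sub-clusters 0 and 3 were named capillary-like, 6 and 9 arterial-like, 5 lymphatic-like and 12 cycling endothelial-like. The other 8 kept no name, because their marker score was too low or no marker of the name was among their 10 leading genes, and are given by their leading genes. Since clusters are made from the cells' own expression, levels across them are a description without a test.

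Among sub-clusters found in at least 4 ewes, SELP was highest in sub-cluster 1, led by the cytokine genes IL6 and CXCL9, with 2.15, 2.20 and 3.71 UMI per 10000 in HLS replicates 1, 2 and 3 and 5.45 and 5.79 in LLS replicates 2 and 3. These 2 LLS values stood above the 3 HLS values, of which that of HLS replicate 2 came from 26 cells. LLS replicate 1 had fewer than 20 such cells. With the cells of LLS replicate 1 included, as in the test below, the groups overlapped for SELP. Of all genes tested in sub-cluster 1, 7.95% did not overlap. Sub-cluster 10, led by PTGS2, the inducible prostaglandin synthase, and by the chemokine gene CXCL10, followed with 3.31 ± 1.6 (n = 4). Sub-cluster 1 was the higher of these in 4 of 4 ewes, though their ranges overlapped. The capillary-like sub-cluster 0, led by OIT3 and COL15A1, had 2.11 ± 1.4 (n = 6). That mean rests largely on ewes with few such cells. HLS replicate 2 and LLS replicate 1, with 1064 and 1562 of its 2952 cells, had 0.60 and 0.83. In cluster 0 of all cells, led by FAM167B and ESM1, SELP was 0.429, against 3.41 in cluster 2, lower in 6 of 6 ewes. Sub-cluster 7, a shallow one led by the collagen gene COL3A1, had 1.67 ± 1.07 (n = 6), and sub-cluster 2, led by PPP1R1B and PLSCR5, had 1.64 ± 0.79 (n = 4). Arterial-like sub-cluster 9, which carried GJA5 and BMX, had 0.216 ± 0.15 and lymphatic-like sub-cluster 5, which carried CCL21 and MMRN1, 0.037 ± 0.018 (n = 6 each). These lowest 2 did not overlap, and sub-cluster 1 exceeded sub-cluster 9 by 18.4-fold in 5 of 5 ewes. In lymphatic-like cells SELP was about as low as in the stromal-like and granulosa-like cells of the same ovaries, where it was 0.0299 and 0.0232. Endothelium of small veins is known as the main site of P-selectin in other tissues. Venous markers were the best-scoring set in sub-clusters 1, 10, 11 and 13, but these sub-clusters kept no name. The venous score was 0.011 in sub-cluster 1 and 0.297 in sub-cluster 11, both too low for a name. It was 0.553 in sub-cluster 10 and 1.07 in sub-cluster 13. No venous marker was among the 10 leading genes of sub-clusters 1, 10 and 13. Sub-cluster 1, with the high SELP level, was thus not named venous by these rules, which leaves its vessel type undecided. In cluster 2 of all cells, where SELP was 3.41, the venous marker ADGRG6 and the capillary marker CA4 were both among the leading genes. Sub-cluster 11, led by FABP4 and CD74, reached 20 cells in LLS replicates 2 and 3, with SELP at 5.18 and 4.71 UMI per 10000.

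VWF followed SELP in part. It was 9.68 ± 2.5 UMI per 10000 in sub-cluster 10, 8.39 ± 1.5 in sub-cluster 1, 7.98 ± 0.56 in sub-cluster 2 and 6.87 ± 3.3 in sub-cluster 0, with overlapping ranges between neighbours in this order. In sub-cluster 0 it was 3.40 and 2.73 in HLS replicate 2 and LLS replicate 1, which held most of those cells. The arterial-like sub-cluster 9 held 4.13 ± 0.72 and the lymphatic-like sub-cluster 5 held 0.522 ± 0.2, lower in 6 of 6 ewes and without overlap. Sub-cluster 6, the second arterial-like one, found with GJA4 and CXCL12 in HLS replicate 2 and LLS replicate 1, had 1.18 and 0.86. SELP and VWF, whose proteins share the storage granule, were both lowest in lymphatic-like cells among sub-clusters found in at least 4 ewes. Sub-cluster 2 held 0.892 of the VWF level of sub-cluster 1 but 0.375 of its SELP level, lower in 4 of 4 ewes each.

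ICAM1 was highest in sub-cluster 1 (3.20 ± 0.83, n = 5), followed by sub-clusters 10 (2.97 ± 0.71, n = 4), 0 (2.34 ± 1.1, n = 6) and 2 (1.91 ± 0.41, n = 4). In sub-cluster 0 it was 1.17 and 1.39 in HLS replicate 2 and LLS replicate 1, which held most of those cells. The capillary-like sub-cluster 3, led by SPP1, had 0.634 ± 0.44 (n = 4) and the lymphatic-like sub-cluster 5 had 0.476 ± 0.21 (n = 6). Sub-cluster 3 was the higher of these in 2 of 4 ewes. HLS replicate 2 and LLS replicate 1, with 616 and 524 cells of sub-cluster 3, had 0.336 and 0.394 there, against 0.535 and 0.727 in sub-cluster 5. Sub-cluster 1 exceeded sub-cluster 5 by 8.01-fold and sub-cluster 9 by 2.40-fold, each in 5 of 5 ewes. Neighbours in the order overlapped throughout.

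PECAM1 and CLDN5 were led by other sub-clusters, but their order was not the reverse of that of SELP. PECAM1 was lowest in sub-cluster 2 (5.74) and was 8.92 in sub-cluster 10, among sub-clusters found in at least 4 ewes. PECAM1 was 14.8 ± 5.4 in arterial-like sub-cluster 9 and 13.2 ± 1.7 in lymphatic-like sub-cluster 5, and 6.56 ± 1.2 in sub-cluster 1. The arterial-like sub-cluster 9 was 2.16-fold and the lymphatic-like sub-cluster 5 was 2.01-fold above sub-cluster 1, each in 5 of 5 ewes. CLDN5 was 8.87 ± 0.97 in sub-cluster 9, higher than in every other sub-cluster found in at least 4 ewes. This did not hold for both arterial-like sub-clusters, since sub-cluster 6 had CLDN5 at 1.93 in HLS replicate 2 and 1.63 in LLS replicate 1. Its ranges in sub-clusters 9 and 2 (6.29 ± 0.41) did not overlap. Lymphatic-like cells had 6.08 ± 1.5 and sub-cluster 1 had 4.65 ± 1.1, with overlapping ranges. Among sub-clusters found in at least 4 ewes, sub-cluster 10 had the smallest CLDN5 level, 2.56 ± 0.36, and the highest VWF. Sub-cluster 11 had PECAM1 at 22.3 and 19.7 in LLS replicates 2 and 3, while arterial-like sub-cluster 9 had 24.07 and 14.06 in these ewes. Sub-cluster 10 led for ICAM1 when HLS replicate 1 or HLS replicate 3 was left out. Without HLS replicate 2 and LLS replicate 1, sub-cluster 11 counted among those compared and had the highest mean for SELP and PECAM1. ICAM1, VWF and CLDN5 kept the leading sub-clusters 1, 10 and 9. The means of sub-cluster 11 came from LLS replicates 2 and 3 alone, so this lead compares different sets of ewes. In these 2 ewes sub-cluster 1 had the higher SELP, with 5.45 and 5.79 against 5.18 and 4.71. Sub-cluster 9 had the higher PECAM1 in LLS replicate 2.

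**Figure D3:**
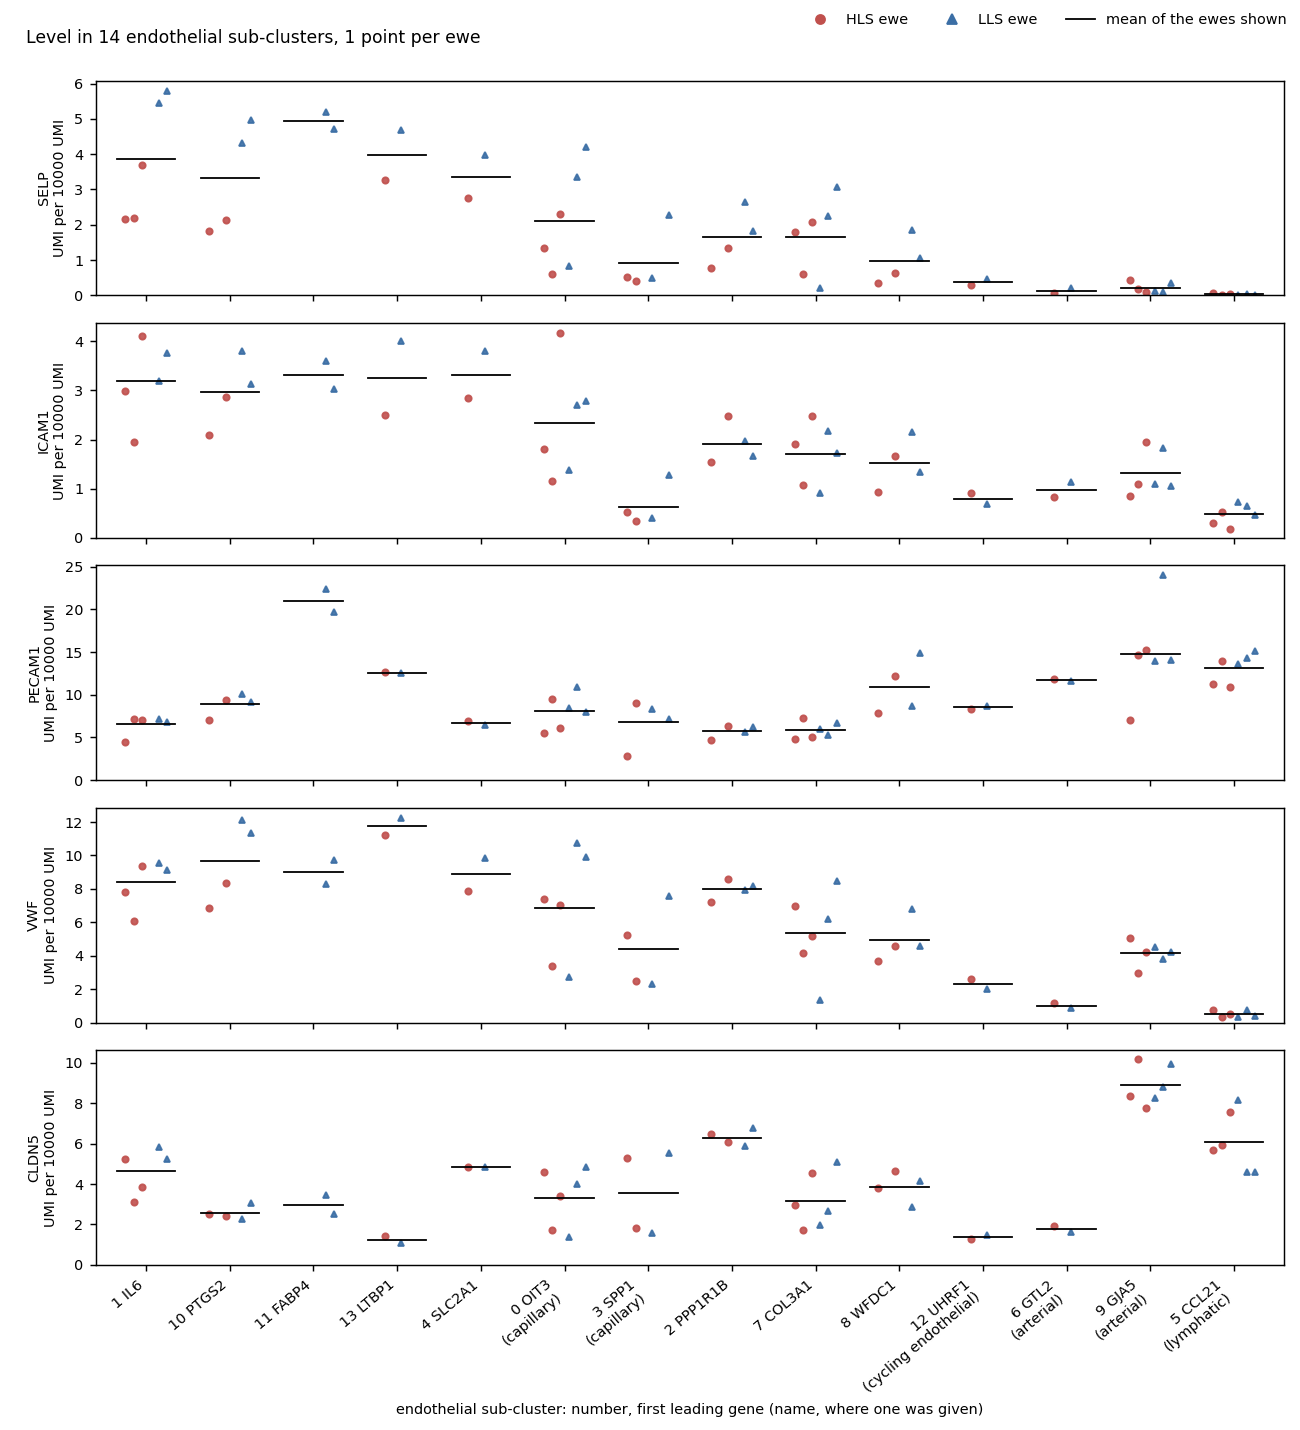
Level of 5 genes (UMI per 10000 UMI, y axis, linear from 0) in 14 endothelial sub-clusters (x axis), with 1 point per ewe with at least 20 cells and the mean of those ewes as a line. SELP, ICAM1 and VWF were high at the left (sub-clusters 1 and 10). SELP and VWF were lowest in the lymphatic-like sub-cluster 5 at the right, where PECAM1 was 13.2 and CLDN5 was 6.08. ICAM1 was low in sub-clusters 3 and 5, with overlapping ranges.

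The same sub-cluster did not hold the same level in every ewe. Sub-cluster 0, which all 6 ewes had, held 1064 and 1562 cells in HLS replicate 2 and LLS replicate 1. In the other 4 ewes it held 34 to 178 cells, and whether these were the same kind of cell was not tested. SELP in sub-cluster 0 was 0.60 and 0.83 in HLS replicate 2 and LLS replicate 1 against 1.35 to 4.19 in the other 4 ewes. In the same cells VWF was 3.40 and 2.73 against 7.03 to 10.72. CLDN5 was 1.74 and 1.37 against 3.39 to 4.83, and ICAM1 was 1.17 and 1.39 against 1.81 to 4.17. PECAM1 did not follow, with 9.55 and 8.45 inside the range of the other 4 ewes (5.50 to 10.92). In arterial-like sub-cluster 9, CLDN5 was 10.15 and 8.25 in those 2 ewes and 7.77 to 9.95 in the other 4. The 2 libraries thus had the lowest SELP, ICAM1, VWF and CLDN5 in sub-cluster 0, while neither had the lowest CLDN5 in sub-cluster 9. Arterial-like sub-cluster 6, which reached 20 cells in these 2 ewes and no other, had the low CLDN5 values given above. Sub-clusters 4 and 13 also reached 20 cells in these 2 ewes alone. In HLS replicate 2 and LLS replicate 1, sub-cluster 4 had SELP at 2.75 and 3.98, VWF at 7.90 and 9.87 and CLDN5 at 4.83 and 4.82. Sub-cluster 13 had SELP at 3.28 and 4.69, VWF at 11.2 and 12.3 and CLDN5 at 1.41 and 1.06.

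SELE, with its few UMI, had its largest count in sub-cluster 0 of LLS replicate 1 (82 UMI in 1562 cells). Its level there was 0.0365 UMI per 10000, against 0.0374 in sub-cluster 6 and 0.0606 in sub-cluster 12 of the same ewe. Sub-cluster 10 had the highest mean level, 0.0334 ± 0.033, from 1, 1, 4 and 17 UMI in 4 ewes. In lymphatic-like sub-cluster 5, arterial-like sub-cluster 9 and sub-cluster 7 no SELE UMI was counted in the ewes with at least 20 cells.

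Detection in single cells was compared at 2000 UMI per cell. In sub-cluster 10, cells with a SELP UMI carried an ICAM1 UMI in 45.1% ± 5.67 of cases and cells without one in 26.7% ± 7.40 (n = 4 ewes). The same direction held in 4 of 4 ewes in sub-cluster 1 (50.6% against 40.3%), sub-cluster 0 (30.8% against 22.1%) and sub-cluster 2 (32.4% against 24.1%). In sub-clusters with 2 such ewes, ICAM1 was higher in 2 of 2 in sub-clusters 4, 8 and 11 and in 1 of 2 in sub-cluster 3. CLDN5 was mixed, with 55.8% against 53.3% in sub-cluster 1, higher in 2 of 4 ewes, and 32.1% against 35.4% in sub-cluster 10, higher in 1 of 4 ewes, but 46.5% against 37.7% in sub-cluster 8, higher in 2 of 2 ewes as in sub-clusters 3 and 4. VWF was found in 82.5% of SELP-positive and 75.3% of SELP-negative cells of sub-cluster 10, higher in 4 of 4 ewes, but in 73.9% and 74.97% of those of sub-cluster 2, higher in 1 of 4 ewes. These shares are a description, since finer states within a sub-cluster were not separated.

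Genes with the pattern most like each of the 6 were ranked by Pearson's r over 55 sums of 1 sub-cluster in 1 ewe, among 12019 genes. The sums share ewes, libraries and cells' depth, and no test was made. SELP was most like LOC101114226 (r = 0.94), VWF (0.91) and SERTM1 (0.91), and r with ICAM1 was 0.80. VWF was most like LOC101114226 (0.94), LOC101108756 (0.92) and SELP. ICAM1 was most like BIRC3 (0.87), an inhibitor of cell death induced by NF-kB, ADAMTS4 (0.85) and CSF3 (0.83). PECAM1 was most like PLPP1 (0.85), PEAK1 (0.80) and SPTBN1 (0.79), and CLDN5 was most like SPECC1 (0.81), SPOCK2 (0.80) and ELOVL7 (0.74). Between the genes themselves, r was -0.51 for SELP with PECAM1, -0.42 for SELP with CLDN5 and 0.15 for PECAM1 with CLDN5.

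The leukocyte side of these contacts was found mainly in immune-like cells. Of 15 listed genes for selectin ligands, integrins and homing receptors, 12 had their highest level there among the 5 types without cycling-like cells, while ITGB1 was highest in perivascular-like cells, GLG1 in stromal-like cells and CD24 in endothelial-like cells. The highest levels in immune-like cells were those of ITGB1 (3.03 ± 0.637 UMI per 10000), CD44 (2.50 ± 0.620) and ITGA4 (1.14 ± 0.354). ITGB1 is the shared beta-1 integrin chain, CD44 a hyaluronan receptor and selectin ligand, and ITGA4 the alpha-4 integrin chain. SELPLG, the ligand of P-selectin, had 0.430 ± 0.097 in immune-like and 0.004 in endothelial-like cells, and the alpha and beta chains of the main ICAM1 receptor, ITGAL and ITGB2, had 0.648 and 0.377 in immune-like cells. ITGB1 reached 13.9 ± 3.23 in perivascular-like cells.

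Of 24 listed genes of endothelial junctions and passage, 14 were highest in endothelial-like cells, 5 in immune-like, 3 in granulosa-like and 2 in perivascular-like cells. CD34 (4.71 ± 2.51), PODXL (4.56 ± 1.03), both sialomucins of the vessel surface, and CDH5 (3.92 ± 1.05), the endothelial cadherin, led in endothelial-like cells. CD34 and CDH5 also served as markers when the clusters were named. Together the 24 genes gave 36.4 UMI per 10000 in arterial-like sub-cluster 9 and 36.6 in sub-cluster 6, against 22.5 in sub-cluster 1 and 18.6 in lymphatic-like sub-cluster 5. PODXL, for example, was 12.1 in sub-cluster 9 and 3.95 in sub-cluster 1, and CLDN5 had the same order in this pair. Elsewhere the summed level did not follow CLDN5. CLDN5 was 1.93 and 1.63 in sub-cluster 6 (HLS replicate 2 and LLS replicate 1). It was 6.08 in sub-cluster 5 and 4.65 in sub-cluster 1.

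Of 15 listed genes of the endothelial storage granule and its release, 9 were highest in endothelial-like cells. CD63 (8.37 ± 1.28), a granule membrane protein, IGFBP7 (4.95 ± 1.498) and EDN1 (2.79 ± 0.704), the vasoconstrictor endothelin, had the highest levels there. CD63 (10.6) and IGFBP7 (5.37) were higher still in perivascular-like cells. EDN1 was 5.09 in sub-cluster 10 and 3.51 in sub-cluster 1, where SELP and VWF were high, and 1.04 in lymphatic-like sub-cluster 5. F8, the clotting factor that VWF carries in blood, was 3.46 in lymphatic-like sub-cluster 5, where VWF was lowest, and 1.25 in sub-cluster 1.

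Genes of the NF-kB response and its receptors were listed because SELE, ICAM1 and, in some species, SELP are known targets of cytokine signals. Of the 22 genes in the files, 14 were highest in immune-like cells, 6 in endothelial-like and 2 in perivascular-like cells. Within endothelial-like cells the highest levels of the list were those of NFKBIA (5.44 ± 1.61), the inhibitor that NF-kB induces, IRF1 (3.23 ± 0.763) and BIRC3 (3.15 ± 1.27). NFKBIA (6.43) and BIRC3 (4.49) were higher still in immune-like cells and IRF1 (3.83) in perivascular-like cells. The summed level of the 22 genes was 29.8 ± 6.26 in sub-cluster 1 and 24.5 ± 5.93 in sub-cluster 10, against 13.8 ± 1.66 in arterial-like sub-cluster 9, 13.1 ± 3.39 in lymphatic-like sub-cluster 5 and 12.2 ± 3.96 in capillary-like sub-cluster 3. NFKBIA alone was 8.74 in sub-cluster 1 and 2.65 in sub-cluster 3. The 17 listed genes that rise when tissue is digested gave 201.1 in sub-cluster 1, 155.0 in sub-cluster 10, 240.9 in sub-cluster 2, 209.0 in sub-cluster 5 and 178.1 in sub-cluster 9. Whether digestion had a part in the levels of SELP or ICAM1 was not tested.

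The comparison of HLS with LLS ewes asks whether ovaries of ewes with large and small litters differ in these genes. The UMI of each type were added up within an ewe, and all genes of a type were tested with edgeR's quasi-likelihood test, with p-values adjusted by the Benjamini-Hochberg method. The ewe is the replicate, so the p-values rest on the spread between 3 and 3 animals. None of the 6 genes was called in endothelial-like cells at an adjusted p under 0.05. The background was 0% of 15041 genes called (0 genes), 201 genes at an unadjusted p under 0.05, none of them among the 6, and 4 genes (0.0266%) called by DESeq2.

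SELP had 1.55 ± 0.715 UMI per 10000 in the endothelial-like cells of HLS ewes and 2.59 ± 1.36 in those of LLS ewes (n = 3 each). The log2 difference of HLS from LLS was -0.64 ± 0.49 (SE), with an edgeR adjusted p of 1.0 and an unadjusted p of 0.225 from the same fit. Without HLS replicate 2 and LLS replicate 1 the difference was -0.73 ± 0.23, with an edgeR adjusted p of 0.757. SELE differed by -1.29 ± 0.69 in the same direction, on 45 UMI in all HLS and 162 in all LLS ewes, of which 120 came from LLS replicate 1.

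ICAM1 had 2.15 ± 0.880 in HLS and 2.15 ± 0.601 in LLS ewes, a log2 difference of 0.10 ± 0.35 (SE). VWF differed by 0.08 ± 0.42 and CLDN5 by 0.14 ± 0.43, with means of 6.16 and 6.35 for VWF and 4.19 and 4.18 for CLDN5. PECAM1 differed by -0.22 ± 0.23, with 7.63 ± 2.13 in HLS and 9.30 ± 0.732 in LLS ewes. For each of the 6 genes the ranges of both groups overlapped, against 4.78% of all genes whose groups did not overlap. In a simulation of this comparison with 14700 genes, 2% of genes changed 2-fold and 57% of genes changed 4-fold were recovered, so that a 2-fold difference was mostly not detectable with 3 against 3 ewes.

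In the other 4 types none of the 6 genes was called either. The edgeR test called 0% of genes in stromal-like (0 of 14746), perivascular-like (0 of 11001), granulosa-like (0 of 12030) and immune-like cells (0 of 10307). At an unadjusted p under 0.05 it found 613, 308, 584 and 446 genes, and DESeq2 called 4 (0.0271%), 2 (0.0182%), 1 (0.00831%) and 26 (0.252%). The groups overlapped for every one of the 6 genes in these types, where 9.81% of all genes in stromal-like, 8.39% in perivascular-like, 15.1% in granulosa-like and 8.82% in immune-like cells did not overlap. ICAM1, the only one of the 6 with a sizeable level in stromal-like and perivascular-like cells, had log2 differences of -0.45 ± 0.29 and -0.20 ± 0.23 (SE). In immune-like cells PECAM1 differed by -0.11 ± 0.31. SELP was too low to be tested in perivascular-like and granulosa-like cells, and SELE in all 4 types.

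Within endothelial subtypes the 6 genes were again not called. The share of genes called by edgeR was 0% in arterial-like, capillary-like, lymphatic-like and cycling endothelial-like cells (0 of 9384, 8281, 8250 and 6223 genes). At an unadjusted p under 0.05 there were 62, 57, 372 and 62 genes, and DESeq2 called 1 (0.0107%), 1 (0.0121%), 3 (0.0364%) and 2 (0.0321%). None of the 6 genes had groups without overlap in arterial-like, capillary-like or lymphatic-like cells, against 5.09%, 4.71% and 10.2% of all genes. SELP differed by -0.90 ± 0.72 (log2, SE) in capillary-like and 0.07 ± 0.78 in arterial-like cells. In lymphatic-like cells ICAM1 differed by -0.74 ± 0.36 (edgeR adjusted p = 0.954) and PECAM1 by -0.18 ± 0.25. Cycling endothelial-like cells, with 2 ewes in each group, had ICAM1 at 1.08 ± 0.45 and CLDN5 at -0.97 ± 0.41, both with an edgeR adjusted p of 1.0.

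The single sub-clusters were tested after the clusters had been seen. SELP was lower in HLS than in LLS ewes in 7 of the 9 sub-clusters in which it was tested, with log2 differences from -0.32 to -1.47, and higher in arterial-like sub-cluster 9 (0.42 ± 0.63) and in sub-cluster 12 (0.02 ± 1.53). None of these differences passed the adjusted threshold. In sub-clusters 0, 1, 3, 7 and 9 the groups overlapped for each of the 6 genes that was tested, in sub-cluster 1 with the few cells of LLS replicate 1 included, against 5.08%, 7.95%, 5.05%, 6.49% and 9.42% of all genes without overlap, and edgeR called 0.0178% of genes in sub-cluster 1. The sub-clusters share ewes and libraries and are not separate evidence. The fits of sub-clusters 2 and 10 used all 6 ewes, since at least 10 cells were enough for a test, while HLS replicate 2 and LLS replicate 1 had too few cells for a level. In sub-cluster 2 SELP was 0.77 and 1.33 in HLS replicates 1 and 3 and 2.63 and 1.83 in LLS replicates 2 and 3. The log2 difference was -0.89 ± 0.30 with an edgeR adjusted p of 1.0, where 0.066% of 10603 genes were called. SELP was 1 of the genes whose groups did not overlap there, as were 6.97% of all genes.

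In sub-cluster 10, ICAM1 was 2.09 and 2.86 in HLS replicates 1 and 3 and 3.80 and 3.13 in LLS replicates 2 and 3. VWF was 6.85 and 8.37 in the same 2 HLS ewes, against 12.12 and 11.35 in LLS replicates 2 and 3. Both genes did not overlap between the groups, as 13.7% of all genes did not. The log2 differences were -0.77 ± 0.32 for ICAM1 and -0.51 ± 0.30 for VWF, with edgeR adjusted p-values of 0.618 and 0.671, where 0% of 8354 genes were called and 656 had an unadjusted p under 0.05. SELP differed there by -0.78 ± 0.34, with an edgeR adjusted p of 0.618. It was 1.84 and 2.13 in HLS replicates 1 and 3 and 4.31 and 4.98 in LLS replicates 2 and 3. Its groups overlapped only with the few cells of HLS replicate 2 and LLS replicate 1 included, as in the test. DESeq2 was not run on single sub-clusters. In sub-cluster 8, led by WFDC1 and ROBO1, SELP differed by -1.44 ± 0.33 and in sub-cluster 11 by -1.47 ± 0.37. The edgeR adjusted p-values were 0.554 and 0.702, on 2 ewes a group. In sub-cluster 11 the HLS ewes of the test had too few cells for a level. It made up 0.563% and 1.38% of the endothelial-like cells of HLS replicates 1 and 3. In LLS replicates 2 and 3 it made up 12.4% and 2.62%. Sub-cluster 1 had the highest SELP among sub-clusters found in at least 4 ewes. There SELP differed by -0.69 ± 0.34, with an edgeR adjusted p of 1.0.

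**Figure D4:**
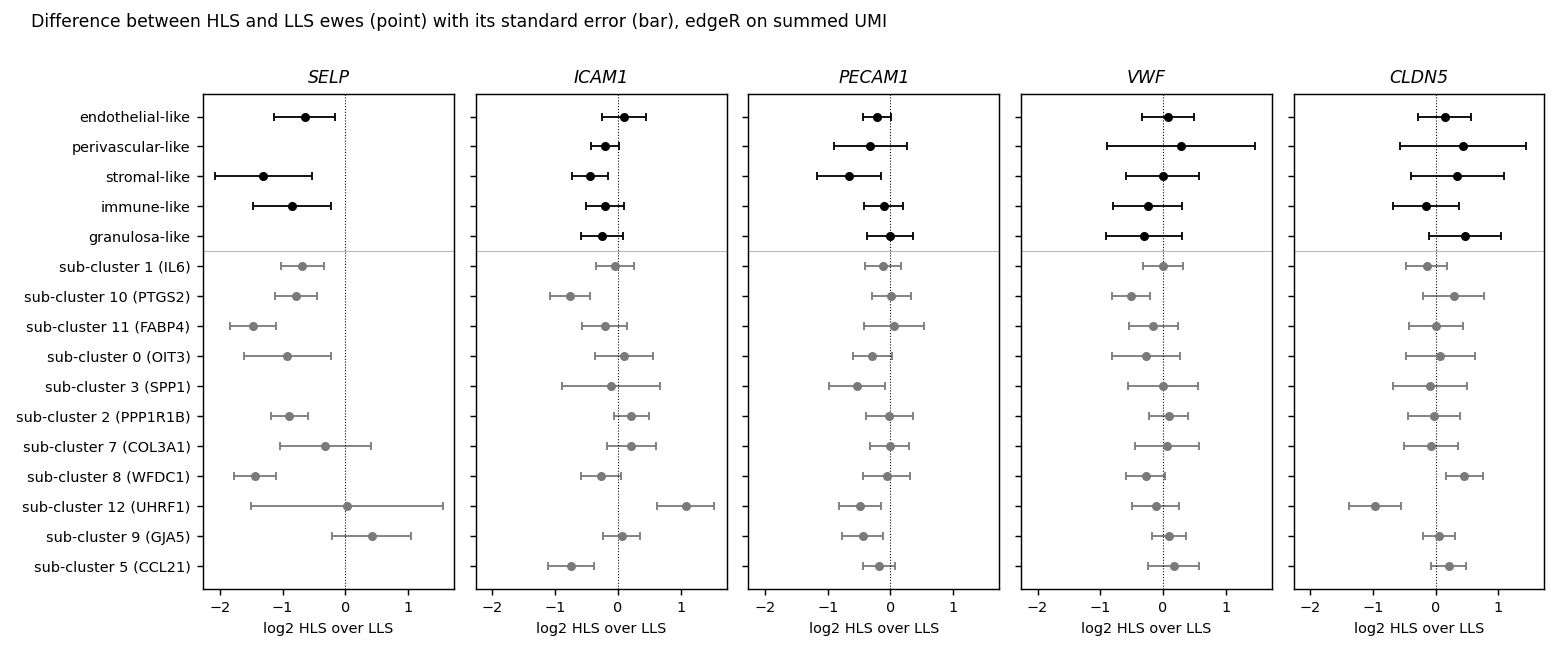
Log2 difference between HLS and LLS ewes (x axis, points) with its standard error (bars) for 5 genes, in 5 cell types (black) and in endothelial sub-clusters (grey), from edgeR on UMI summed per ewe. Most SELP points lay left of 0, as for endothelial-like cells at -0.64. The SELP point of sub-cluster 11, at -1.47, rests on HLS ewes with too few cells for a level. No SELP point passed an adjusted p of 0.05, and a missing point is a gene too low to be tested.

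No other listed gene was called between the groups. In endothelial-like cells, of the genes tested, 0 of 8 on the leukocyte side, 0 of 22 of junctions and passage, 0 of 15 of the storage granule, 0 of 20 of the NF-kB response and 0 of 17 of the stress of cell release were called by edgeR. One stress gene, DUSP1, had an unadjusted p under 0.05, with a log2 difference of 0.58 ± 0.24. DESeq2 called none of the listed genes in any type tested. The median log2 difference was -0.07 for the 22 junction genes, -0.05 for the granule genes, -0.11 for the NF-kB genes and 0.19 for the stress genes, against 0.005 for all genes tested. The summed level of the 24 junction genes ranged from 17.6 to 26.5 UMI per 10000 in HLS and from 27.0 to 28.7 in LLS ewes. That of the 15 storage granule genes ranged from 23.3 to 25.3 in HLS and from 22.4 to 23.2 in LLS ewes. Neither sum overlapped between the groups, in opposite directions, none of the genes was called, and the sums were not tested. Of single genes in these cells, 4.78% did not overlap. Shares of single genes, here and below, give no rate for sums over a list. The junction sum also did not overlap in stromal-like (3.46 to 4.59 in HLS, 4.70 to 5.81 in LLS) and granulosa-like cells (3.68 to 4.54, 4.97 to 5.19). The leukocyte-side sum did not overlap in perivascular-like cells (12.5 to 14.8, 17.2 to 22.2). Of single genes, 9.81% did not overlap in stromal-like, 15.1% in granulosa-like and 8.39% in perivascular-like cells. All other sums of these lists overlapped between the groups in the main types. Among them was the junction sum in immune-like (2.97 to 3.76 in HLS, 3.61 to 4.97 in LLS) and perivascular-like cells (6.63 to 9.82, 9.04 to 11.2). In endothelial-like cells the summed level of the NF-kB genes ranged from 15.8 to 26.1 in HLS and from 18.0 to 27.7 in LLS ewes. The shares of endothelial subtypes, which stand beside each level in all endothelial-like cells, varied widely between ewes. Capillary-like cells were 20.5% ± 28.3 in HLS and 23.4% ± 32.7 in LLS ewes (two-sided exact permutation test, p = 0.7, n = 3 each, where 0.1 is the smallest p that 3 against 3 allows).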

How the data were processed

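Reads of 6 Chromium Single cell 3′ v3 libraries were mapped by the authors with Cell Ranger 5.0.0, which uses STAR. The genome build is not given in the sources used here. The deposited values are raw UMI counts per gene and barcode, not normalized. The 6 genes and the gene lists were chosen with earlier results of these data known.

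The limits of the study were applied: a barcode was kept with at least 200 genes and 1000 UMI, log10 genes divided by log10 UMI of at least 0.7, and no more than 10% mitochondrial and 5% haemoglobin UMI. Doublets were called from simulated doublets, 2 per cell, in place of DoubletFinder. Clusters came from 2000 variable genes without the 6 genes and the listed genes that are not markers, 30 principal components, 20 neighbours and Leiden clustering at a resolution of 0.8 (leidenalg 0.10.2, igraph 0.11.9; Python 3.11.15, numpy 2.4.6, scipy 1.17.1, pandas 2.3.3, scikit-learn 1.9.0). Names needed a marker score of at least 0.5 and at least 3 markers detected, endothelial subtypes also a marker among the leading genes. These naming rules were set after the clusters were seen, and the names can place a cell elsewhere than the study did.

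UMI were summed per ewe and type with at least 10 cells, and HLS was set against LLS with edgeR 4.0.16 (R 4.3.3), after filterByExpr and with TMM scaling. DESeq2 1.42.0 was an alternative. The study tested cells as replicates, which was not repeated. Thresholds were Benjamini-Hochberg adjusted p under 0.05. The test was tested on simulated data. Named are the 6 genes, for each list the members with the highest level in the cells described and any that a count singles out, and the 3 genes most like each of the 6 except SELE among genes with at least 5 UMI per sum on average. EDN1, F8, PODXL, SELPLG, ITGAL, ITGB2 and DUSP1 were named after their values were seen. Figures were drawn with matplotlib 3.10.9.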

Additional observations from a re-analysis of the deposited data

Results flagged for a closer look

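In a group of 6 ewes, 1 value can lie far from the other 5 relative to their range, and chance gives this in about 1 in 20 groups. Of 26 sets of values, each 1 gene in 1 type, 2 were of this kind. SELP in stromal-like cells was 0.0858 UMI per 10000 in LLS replicate 2, against 0.0301 in the next ewe. The summed endothelial markers in the stromal-like cells of the 6 ewes ranged from 1.24 to 2.82 UMI per 10000. ICAM1 in perivascular-like cells was 3.06 in LLS replicate 2, against 2.13 in the next ewe. The summed NF-kB genes in perivascular-like cells ranged from 9.93 to 17.2, and their endothelial markers from 1.10 to 4.61. The part of these sums in either value was not tested.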

How the results depend on the processing

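None of the 6 genes was called under any setting tried, in any type or subtype. Replicate numbers did not pair the ewes (correlations of same-numbered deviations -0.29, -0.35 and 0.28 in endothelial-like cells), and with the replicate number as a block 0 of them were called. Signs of uncalled differences turned in some settings. Without TMM factors VWF in endothelial-like cells was -0.043 and CLDN5 in arterial-like cells -0.075 (log2). At a resolution 2 times the main value VWF in capillary-like cells was 0.031. Without HLS replicate 2 and LLS replicate 1, a setting chosen after seeing the data, CLDN5 in arterial-like cells was -0.01. With 1 ewe left out in turn, endothelial-like ICAM1 ranged from -0.12 to 0.39, VWF from -0.22 to 0.35 and CLDN5 from -0.23 to 0.43. Perivascular-like ICAM1 ranged from -0.31 to 0.0023, immune-like ICAM1 from -0.51 to 0.053, immune-like PECAM1 from -0.35 to 0.17 (-0.49 without HLS replicate 2 and LLS replicate 1), arterial-like CLDN5 from -0.35 to 0.38 and capillary-like VWF from -0.64 to 0.10. The difference in the share of capillary-like cells was -2.88 points, 0.0299 with called doublets kept, and -19.2 to 16.0 with 1 ewe left out. That of arterial-like cells was -1.89 and ranged from -5.33 to 0.574, and that of lymphatic-like cells was -4.18 and ranged from -6.51 to -0.861. Without the filter on low counts 1 listed gene was called, CX3CR1 in immune-like cells, in place of 0. The 5 genes other than SELE kept their leading sub-cluster in 2 cases at a resolution 2 times the main value, in 3 without HLS replicate 2 and LLS replicate 1 and in 4 to 5 with 1 ewe left out. VWF alone changed it with the mitochondrial limit at 20% (to one that drew the most cells from sub-cluster 7) and at a resolution 0.5 times the main value (to one that drew the most cells from sub-cluster 1). With cycling-like cells left out, endothelial-like cells led for 5 of 6 genes, and in 5 to 6 with 1 ewe left out. Thinned to 1000 UMI, endothelial-like cells with a UMI were 16.8% for ICAM1, 49.6% for PECAM1, 40.3% for VWF and 31.0% for CLDN5. The causes were not tested, except that thinning removes UMI. Depth limits SELE, and the number of ewes limits the comparison of the groups.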

Other observations

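The 6 genes were also read in cells outside the comparisons above. In B cell-like, Schwann-like and epithelial-like cells, found in 3 or 4 ewes with at least 20 cells, SELP was 0.0374, 0.188 and 0.110 UMI per 10000, PECAM1 was 0.611, 0.758 and 0.658, and ICAM1 was 0.518, 0.546 and 1.02. ICAM1 in epithelial-like cells (1.02 ± 0.124, n = 3) varied little between ewes. A cluster of 136 cells led by S100A8 and S100A9, which kept no name and had a median of 1283 UMI per cell, held PECAM1 at 6.90 ± 2.88, VWF at 1.90 ± 0.868, CLDN5 at 1.57 ± 0.414 and SELP at 0.618 ± 0.297 (n = 3 ewes). These values belong to no comparison and were not tested.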
